A study of Mus musculus with 12 samples.

Results

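The integrin and laminin genes were examined in the histone modification maps of C2C12 myoblasts and myotubes. Members were taken by name, as all annotated protein-coding genes with an Itga or Itgb symbol followed by a number or letter, and all with a Lama, Lamb or Lamc symbol followed by a number. Genes of integrin-binding proteins (the Itgb1bp genes, Itgb3bp) and Itgbl1 were left out. The rule gave 38 of the 22350 protein-coding genes of the mm9 annotation on chromosomes 1 to 19 and X. Of these, 18 encode integrin alpha subunits, 9 integrin beta subunits and 11 laminin chains.

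The maps came from chromatin immunoprecipitation followed by sequencing (ChIP-seq) for 6 marks, H3K4me3, H3K4me2, H3K4me1, H3K27ac, H3K27me3 and H3K36me3. C2C12 is an immortal clonal line from the muscle of C3H mice, so all 12 libraries share 1 genetic background. Myoblasts, at passages 15 to 18, were harvested near confluence in 10% serum. Myotubes of the same passages were taken about 5 days after serum was withdrawn and were freed of unfused cells with mild trypsin. Each mark had 1 library per cell type, without replicates, and input chromatin was not analysed here. A ratio of myotubes to myoblasts therefore compares 2 libraries, and its interval covers counting error only.

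Integrins are receptors of the cell surface built from 1 alpha and 1 beta subunit, and they tie the cytoskeleton to the extracellular matrix. Laminins are trimers of an alpha, a beta and a gamma chain and form the basement membrane that wraps each muscle fibre. In muscle, the integrin of the Itga7 and Itgb1 products binds the laminin that holds the Lama2 chain, and loss of either Itga7 or Lama2 causes muscular dystrophy. H3K4me3 and H3K27ac mark active promoters, H3K4me1 and H3K4me2 mark promoters and enhancers, H3K36me3 covers transcribed gene bodies, and H3K27me3 is the mark of Polycomb-repressed chromatin.

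Libraries held between 1858771 reads, for H3K27ac in myoblasts, and 7033100 reads, for H3K36me3 in myoblasts. Reads were counted within 1 kb either side of a transcription start site (TSS), here called the promoter, and over the rest of the gene, here called the gene body. Levels are given as times the genome mean of the same library, and 3 reads at a promoter were worth between 0.546 and 2.06 times the genome mean. A ratio is that of myotubes to myoblasts, divided by the median ratio of all promoters or gene bodies whose 2 libraries summed to 30 reads or more. A feature with that many reads was called higher at a ratio of at least 2 and lower at a ratio of at most 0.5. By total reads alone the median promoter was at -0.21 on the log2 scale for H3K4me3, -0.75 for H3K4me2, -0.30 for H3K4me1, -0.81 for H3K27ac, -0.51 for H3K27me3 and 0.01 for H3K36me3, and changes are given relative to these shifts. For gene bodies the shift was 0.22 for H3K4me2 and 0.21 for H3K27me3 and below 0.1 in size for the other marks. The cell labels were checked with marker genes. All 6 myotube markers were called higher for H3K4me3 (median ratio 25.5), for H3K27ac (44.9) and, over gene bodies, for H3K36me3 (8.11), while of 6 genes of dividing myoblasts 4 were called lower for H3K4me3 and 5 for H3K27ac. The part of this shift in cell state in the results below was not tested, and in these bulk libraries fewer cells with a mark and less of it per cell cannot be told apart. Markers of leukocytes (5 found of 6), platelets (3) and epithelium (4) had no promoter H3K4me3 above 4.65 times the genome mean, and of 4 endothelial markers Kdr was highest at 7.38 times in myoblasts.

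Among the promoters of the family, those of Itga3, Itga5, Itga6, Itga7 and Itgav and of the chains Lama2, Lama5, Lamb1, Lamb2 and Lamc1 carried a deposited H3K4me3 peak in both cell types, and those of the 5 integrin alpha genes of leukocytes carried none. A peak lay at 15 of the 38 promoters in myoblasts, or 39.5%, against 48.6% of all promoters. In myotubes 16 promoters had a peak, or 42.1%, against 48.8% of all. The peak was present in both cell types at 13 promoters, namely Itga3, Itga5, Itga6, Itga7, Itgav, Itgb1, Itgb5, Itgb8, Lama2, Lama5, Lamb1, Lamb2 and Lamc1. Itgb3 and Itgb7 had a peak in myoblasts only, and Itga1, Itga4 and Itgb6 in myotubes only. A peak in either cell type thus lay at 18 members. Of all 22350 promoters 11337 had a peak in either cell type, 10873 in myoblasts and 10900 in myotubes, so most peaks were shared there too. At Itga1 the reads hardly differed, with 16 in myoblasts and 21 in myotubes (7.38 and 8.15 times the genome mean), and at Itga4 they were 5 and 16 (2.31 and 6.21 times). The myotube list held 17936 peaks in all and the myoblast list 12608.

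**Figure D1:**
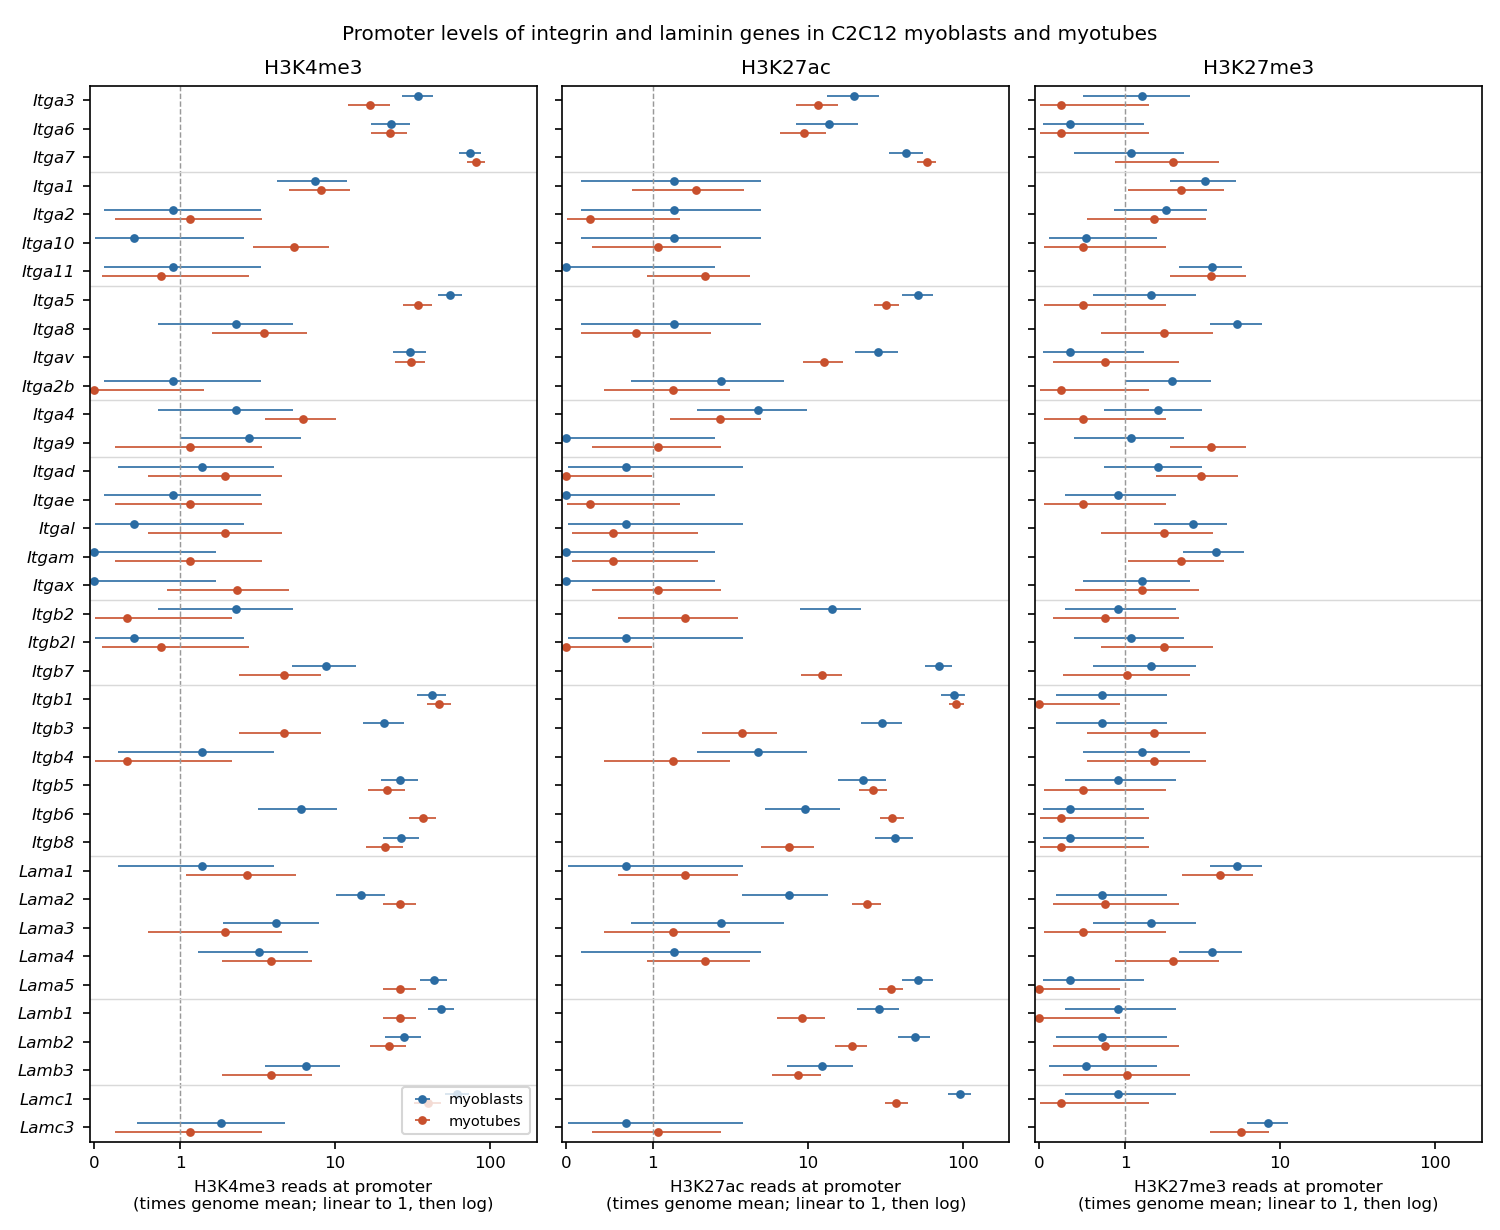
Reads of H3K4me3, H3K27ac and H3K27me3 within 1 kb of the TSS of 37 of the genes, as times the genome mean (axis linear to 1 and logarithmic above), in myoblasts (blue) and myotubes (red), with 95% Poisson intervals of the count. Itga7 had the highest H3K4me3 level of the family in both cell types, Itgb6 and Itgb3 changed most between them, and Lamc3 had the highest H3K27me3 level.

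Promoters without an H3K4me3 peak were not all bare. In myoblasts the 23 such members had a median of 8.04 times the genome mean for H3K4me2 (95% interval of the median 1.19 to 19.1), while the median of all 11477 promoters without a peak was 0.596. H3K4me1 at these 23 promoters had a median of 3.55 times (1.97 to 6.71), against 0.592 for all such promoters. In myotubes the 22 members without a peak had a median of 3.09 times for H3K4me2 (0.807 to 6.99), against 0.538 for all. Itga8 (90 reads, 26.8 times), Lama3 (87 reads, 25.9 times), Itga1 (82 reads, 24.4 times) and Lama1 (75 reads, 22.4 times) had the most H3K4me2 of the myoblast promoters without a peak, and Itgax had the least, with 1 read or 0.298 times. The 15 members with a peak in myoblasts had median levels near those of all promoters with a peak for H3K4me3 (30.4 times, 23.1 to 48.4, against 32.3), and their H3K27ac median was 36.5 times (22.7 to 51.6) against 24.8 for all. Promoter sequence differed along the same line. The 18 members with a peak in either cell type held a median of 15.5 CpG dinucleotides in the 250 bp before the TSS (18 for all promoters with a peak), and the 20 others held 6.5 (3 for all others). Some members with a peak had few, with 0 at Lama2, 3 at Lamb2, 5 at Itgb7 and 6 at Itga4.

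H3K27me3 at 3 or more times the genome mean was found at 7 promoters in myoblasts, against 10.3% of all promoters, and at 5 in myotubes, against 6.94% of all. In a window of 2.5 kb either side of the TSS the limit was passed at 4 members in myoblasts (9.5% of all promoters) and 2 in myotubes (6.86%). None of the promoters past the limit within 1 kb had a deposited H3K4me3 peak in the same cell type. The share with a peak among all promoters past the limit was not counted, so no difference from other genes can be read from this. Itga1 in myoblasts had H3K4me3 at 7.38 times the genome mean without a peak. Lamc3, the gamma chain of laminins outside muscle, was highest, with 46 reads in myoblasts (8.38 times) and 22 in myotubes (5.61 times). Lama1, the alpha chain of embryonic laminin, had 29 and 16 reads (5.29 and 4.08 times), and Itga11, a collagen receptor of fibroblasts, had 20 and 14 (3.65 and 3.57 times). These 3 promoters passed the limit in both cell types. Myoblasts alone passed it at Itga8 (29 and 7 reads, 5.29 and 1.78 times), Itgam (21 and 9 reads, 3.83 and 2.3 times), Lama4 (20 and 8 reads, 3.65 and 2.04 times) and Itga1 (18 and 9 reads, 3.28 and 2.3 times). Myotubes alone passed it at Itga9 (6 and 14 reads, 1.09 and 3.57 times) and Itgad (9 and 12 reads, 1.64 and 3.06 times). For Itga9, Itgad and Itgam the TSS with the most H3K4me3 reads lay 104967, 19570 and 8019 bp downstream of the first annotated one. At the first TSS of Itga9 the order was the other way, with 15 reads in myoblasts and 6 in myotubes (2.73 and 1.53 times). The order was also the other way at the first TSS of Itgad, with 14 and 7 reads (2.55 and 1.785 times). At the first TSS of Itgam there were 16 and 9 reads (2.92 and 2.3 times), below the limit in both cell types. None of the 5 members with at least 30 reads was called higher (background 5.81%) or lower (10.3%), and their ratios ran from 0.533 at Itga8 (95% interval 0.178 to 1.13) to 1.43 at Itga11 (0.654 to 2.91). At 12 of the 38 promoters neither an H3K4me3 peak nor H3K27me3 past the limit was found in either cell type. The same share of all promoters was not counted, so the 12 cannot be set against a background. Among them were Itga2, Itga2b and Itga10, the leukocyte genes Itgae, Itgal, Itgax and Itgb2, and the epithelial Itgb4 and Lama3.

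Between myoblasts and myotubes, Itgb6 and Lama2 were called higher at the promoter for both H3K4me3 and H3K27ac, and Itgb3 was called lower for both. The lowest promoter ratio of the family in any mark was that of Lamc3 for H3K4me2 (0.196). For H3K4me3, 2 of 17 members with enough reads were called higher, against a background of 3.92%, and 1 was called lower, against 4.13%. For H3K27ac 4 of 17 were called higher (background 14.3%) and 3 lower (12.5%). For H3K4me2 2 of 30 were called higher (7.89%) and 7 lower (8.61%), and for H3K4me1 1 of 26 was called higher (11.7%) and 6 lower (12.2%). H3K36me3 at promoters was called at none of 3 members, against 9.89% higher and 11.2% lower among all, and ran from 29 and 9 reads at Itgb7 (0.54, 0.21 to 1.09) to 16 and 19 at Itga7 (1.91, 0.94 to 4.01). The median ratio of the members was 0.924 for H3K4me3 (0.706 to 1.26), 1.09 for H3K27ac (0.683 to 1.81), 0.694 for H3K4me2 (0.643 to 0.957) and 0.809 for H3K4me1 (0.572 to 1.07), where the median of all promoters tested is 1 by construction. Scaled by total reads in place of the median, the members called were 1 higher and 2 lower for H3K4me3, 2 and 7 for H3K27ac, 1 and 20 for H3K4me2, 0 and 10 for H3K4me1 and 0 and 1 for H3K27me3. Under that scaling the calls among all promoters tested were 318 higher and 782 lower of 10905 for H3K4me3, 481 and 4070 of 9903 for H3K27ac, 258 and 4586 of 12758 for H3K4me2, 495 and 1710 of 8230 for H3K4me1 and 15 and 473 of 1842 for H3K27me3.

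**Figure D2:**
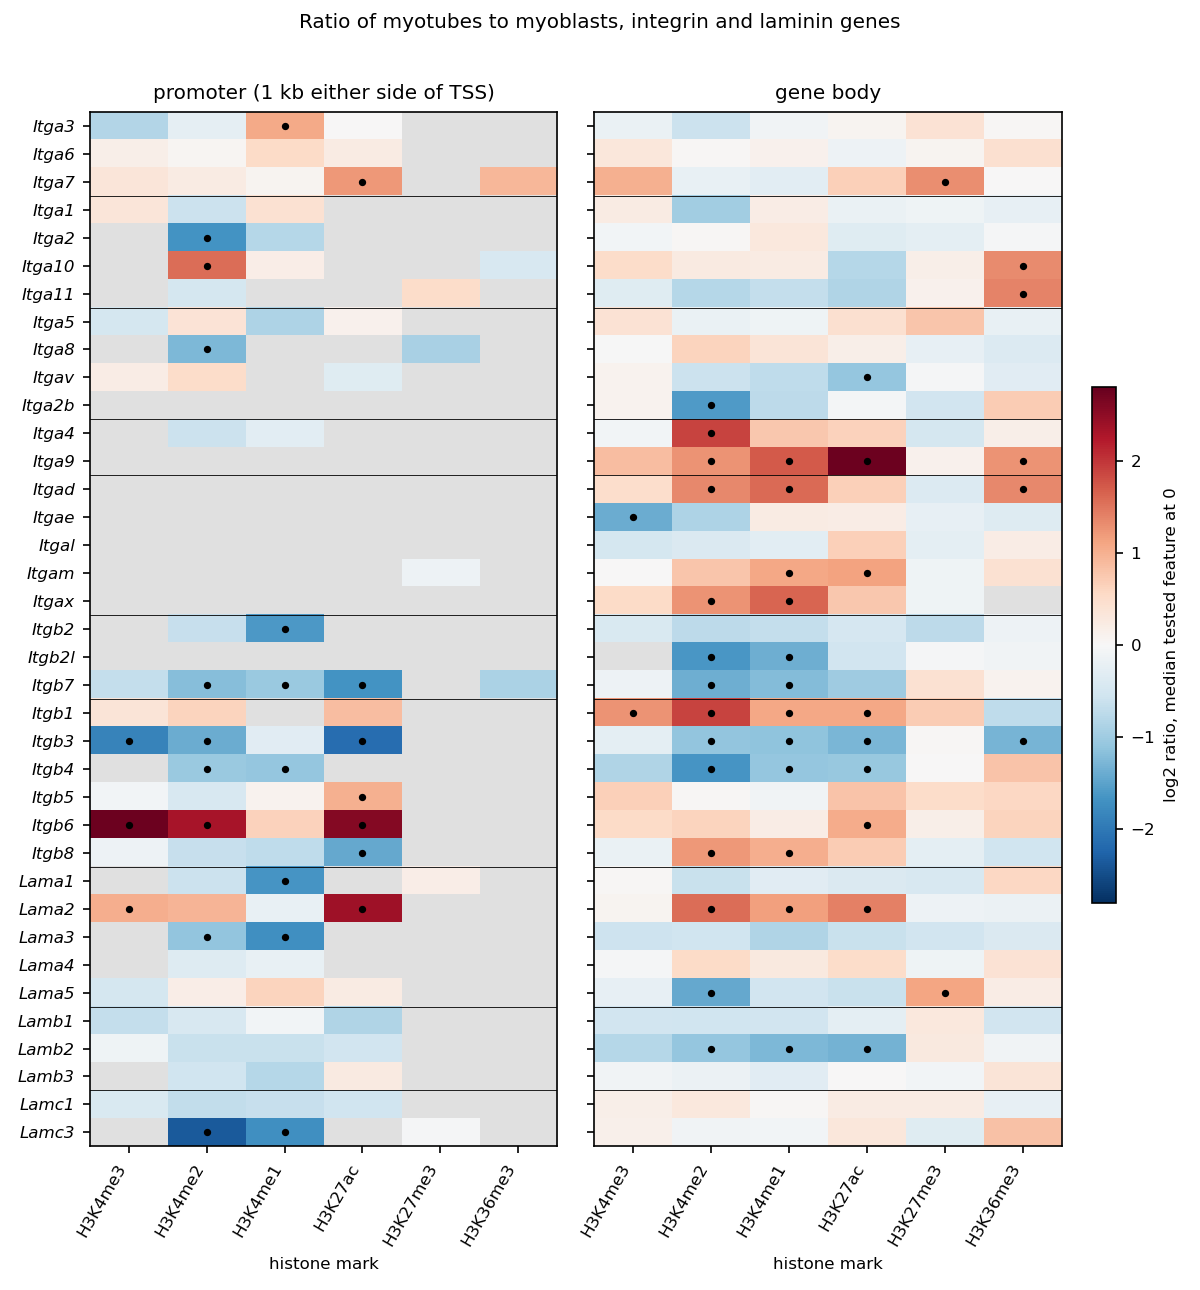
Ratio of myotubes to myoblasts (log2, median of all features tested at 0) for 37 of the genes and each mark, at promoters (left) and over gene bodies (right), with black dots where the ratio was at least 2 or at most 0.5 and grey where the libraries held fewer than 30 reads together. Rows are grouped by role from integrin alpha subunits (top) to laminin gamma chains (bottom), with the highest promoter ratio at Itgb6 for H3K4me3 (6.66) and the lowest at Lamc3 for H3K4me2 (0.196).

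Among the integrin beta genes, Itgb6 rose and Itgb3 fell. Itgb6 encodes the partner of the alpha v subunit best known from epithelia. Its promoter had 13 H3K4me3 reads in myoblasts and 95 in myotubes (6 and 36.9 times the genome mean), a ratio of 6.66 (3.96 to 13.8) that ranked 133 of 10905 promoters. H3K27ac went from 14 to 129 reads (9.63 to 34.9 times, ratio 5.96, 3.64 to 11.9) and H3K4me2 from 31 to 103 (ratio 4.94, 3.35 to 7.81), while H3K4me1 was called neither way (25 and 31 reads, ratio 1.57). These 3 calls held under every alternative run. The gene was not bare in myoblasts. Of 117 pieces of 1 kb of its body away from any TSS, 19 had H3K27ac at 10 or more times the genome mean in myoblasts and 37 in myotubes, and H3K27ac over the whole body went from 559 to 2777 reads (ratio 2.05, 1.87 to 2.25), a call lost when scaled by total reads (1.95) and with the deeper library thinned (1.98). H3K36me3 over the body went from 758 to 735 reads (2.23 to 3.53 times, ratio 1.55, 1.4 to 1.72), which was not called.

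Itgb3 encodes the beta subunit of the vitronectin receptor and of the platelet fibrinogen receptor. H3K4me3 at its promoter went from 45 reads in myoblasts to 12 in myotubes (20.8 to 4.66 times, ratio 0.275, 0.125 to 0.498), rank 76 from the lowest of 10905. H3K27ac went from 44 to 14 reads (30.3 to 3.79 times, ratio 0.229, 0.111 to 0.407) and H3K4me2 from 198 to 49 (59 to 13.2 times, ratio 0.382, 0.269 to 0.516). Its body moved the same way, with H3K36me3 at 837 and 211 reads (4.96 and 2.04 times, ratio 0.405, 0.345 to 0.47), H3K4me1 at 1501 and 671 reads (0.459, 0.418 to 0.502) and H3K27ac at 387 reads in both libraries, of which the myotube library was the deeper (8.67 and 3.41 times, ratio 0.413, 0.358 to 0.477). The pieces of 1 kb with H3K27ac at 10 or more times the genome mean went from 19 to 4 of 57. Itgb3 was the only member called lower for H3K4me3 and for both H3K27ac and H3K36me3. Of the 3 platelet markers, none had more than 2.31 times the genome mean of H3K4me3 in either cell type.

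The promoter sequences of Itgb6 and Lama2 are shown because these were the only members called higher for both H3K4me3 and H3K27ac, and that of Itgb3 because it was called lower for both, a choice made after its values were seen. Each is the 250 bp before the TSS in mm9, 5′ to 3′ in the direction of the gene, outside every annotated exon, at chr2:60560701-60560950 on the minus strand for Itgb6, at chr10:27336749-27336998 on the minus strand for Lama2 and at chr11:104469120-104469369 on the plus strand for Itgb3. Capitals mark matches, on either strand, to CANNTG (the E-box of MyoD and related factors), GGGCGG (a GC box), TGANTCA (an AP-1 site), GGAATG (a TEAD site) and the MEF2 site.
Itgb6: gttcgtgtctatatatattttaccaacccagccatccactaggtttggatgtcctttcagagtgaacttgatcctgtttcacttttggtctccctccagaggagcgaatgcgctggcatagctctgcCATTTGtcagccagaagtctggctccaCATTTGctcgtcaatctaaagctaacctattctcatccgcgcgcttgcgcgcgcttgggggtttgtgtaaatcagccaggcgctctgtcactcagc
Lama2: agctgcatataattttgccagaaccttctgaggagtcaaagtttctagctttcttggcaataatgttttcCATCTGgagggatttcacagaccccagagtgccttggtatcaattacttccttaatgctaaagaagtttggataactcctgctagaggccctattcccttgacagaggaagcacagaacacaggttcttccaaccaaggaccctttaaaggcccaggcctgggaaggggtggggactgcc
Itgb3: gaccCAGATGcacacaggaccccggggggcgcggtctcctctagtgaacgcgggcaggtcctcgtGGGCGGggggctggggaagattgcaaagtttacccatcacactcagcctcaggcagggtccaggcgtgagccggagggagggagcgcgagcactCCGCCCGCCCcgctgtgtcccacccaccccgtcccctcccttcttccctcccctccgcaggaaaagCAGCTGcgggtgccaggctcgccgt
The window of Itgb6 held 2 CANNTG matches and 11 CpG dinucleotides, that of Lama2 held 1 and 0, and that of Itgb3 held 2 and 19, of which 1 CANNTG match was also a match to CAGCTG. Matches to GGGCGG were found only before Itgb3, in 3 places, and overlapped in 1 pair. CANNTG occurs in the same window of 62% of all 22350 promoters, CAGCTG in 11.9%, GGGCGG in 42.4%, TGANTCA in 5.81%, GGAATG in 10.9% and the MEF2 site in 2.72%. Of the 38 members 26 held CANNTG, 7 CAGCTG, 18 GGGCGG, 2 TGANTCA, 5 GGAATG and 1 the MEF2 site. A match in these letters is a description of the window and not a bound site.

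**Figure D3:**
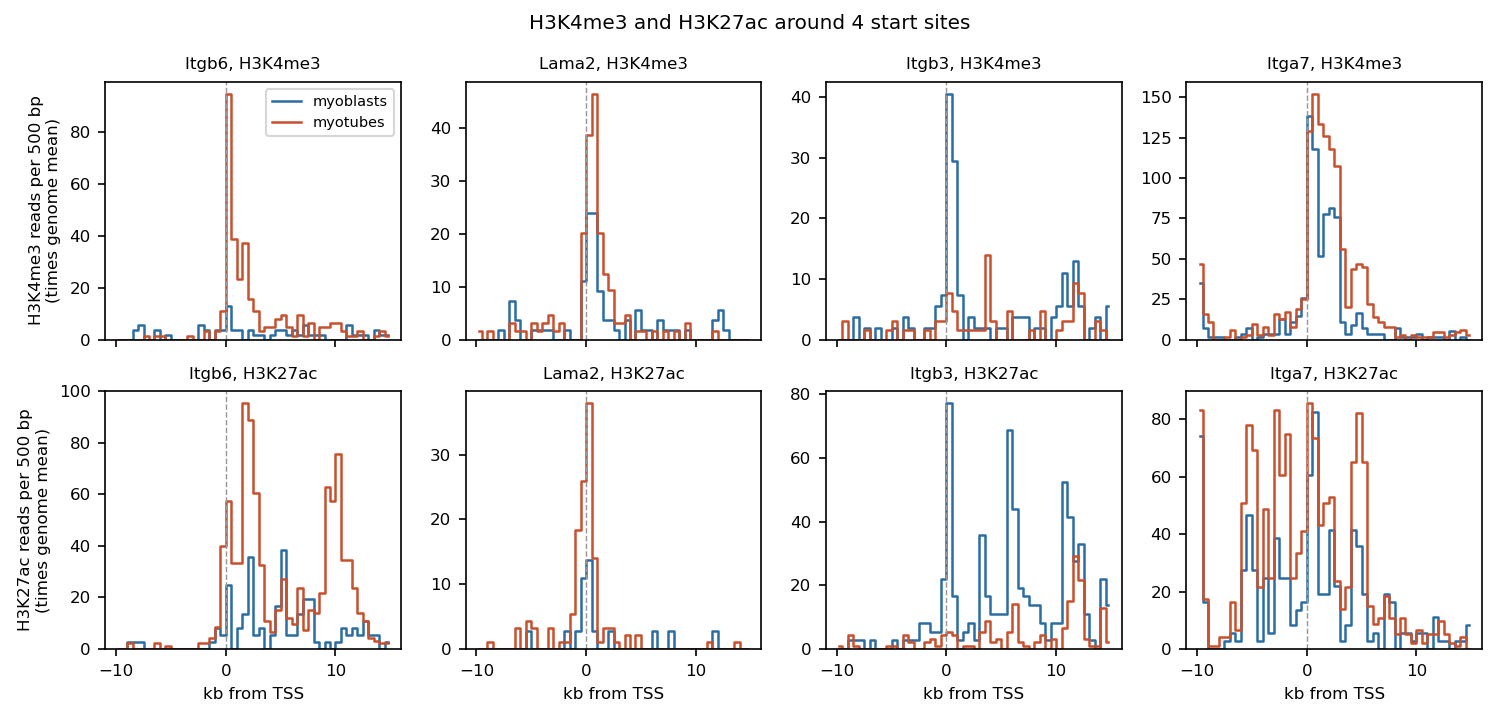
H3K4me3 (top) and H3K27ac (bottom) in bins of 500 bp from 10 kb before to 15 kb after the TSS of Itgb6, Lama2, Itgb3 and Itga7, as times the genome mean on linear axes, in myoblasts (blue) and myotubes (red). The signal at the TSS of Itgb6 and Lama2 was higher in myotubes, and that at Itga7 reached farther downstream in myotubes. At Itgb3 both marks were higher in myoblasts around the TSS, and over the first 10 kb of the gene H3K27ac alone was.

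The other beta genes moved less or in fewer marks. Itgb7, a beta subunit of lymphocyte receptors, was called lower at the promoter for H3K27ac, H3K4me1 and H3K4me2. H3K27ac had 102 reads in myoblasts against 46 in myotubes (70.2 and 12.4 times, ratio 0.314, 0.214 to 0.443). H3K4me1 had 290 reads against 110 (57.3 and 22.4 times, ratio 0.487, 0.385 to 0.605) and H3K4me2 144 against 41 (ratio 0.44, 0.298 to 0.616). Its H3K4me3 was low beside these marks, with 19 and 12 reads (8.76 and 4.66 times), and its body H3K36me3 did not differ by the call (161 and 107 reads, 3.92 and 4.25 times, ratio 1.07). Leukocyte markers were near the genome mean for H3K4me3 in both cell types, at most 1.38 times in myoblasts and 1.55 in myotubes. Itgb8, another partner of alpha v, was called lower for H3K27ac (53 and 28 reads, 36.5 and 7.58 times, ratio 0.369, 0.221 to 0.585) with H3K4me3 near the median (58 and 54 reads, ratio 0.906). Itgb5, the beta subunit of a further vitronectin receptor, was at the limit of the call for H3K27ac (33 and 98 reads, 22.7 and 26.5 times, ratio 2, 1.36 to 3.13), and 6 of the 9 alternatives ended this call. Itgb1, which pairs with most of the alpha subunits here, had the highest H3K27ac of the beta genes in both cell types (127 and 336 reads, 87.4 and 90.9 times) and no promoter call (1.81, 1.48 to 2.25). The epithelial Itgb4 was called lower for H3K4me2 (27 and 8 reads, ratio 0.488) and H3K4me1 (34 and 12 reads, ratio 0.474, 0.212 to 0.891), the first with an interval of 0.177 to 1.02 that includes 1 and a call that held under 4 of 8 alternatives. Itgb2, the common beta subunit of leukocyte integrins, was called lower for H3K4me1 (92 and 23 reads, 18.2 and 4.69 times, ratio 0.329, 0.193 to 0.508), and its H3K27ac reads, 21 and 6, were too few to call. Itgb2l had at most 7 reads of any mark at its promoter.

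Of the alpha subunits that bind laminin, Itga3, Itga6 and Itga7, all had an H3K4me3 peak in both cell types. Itga7, the main alpha subunit of muscle fibres, had the highest H3K4me3 of the 38 promoters, with 161 reads in myoblasts and 209 in myotubes (74.2 and 81.1 times, ratio 1.26, 1.02 to 1.56). The peak at its TSS was 6438 bp wide in myoblasts, rank 83 of 12608 peaks by width, and 9677 bp wide in myotubes, rank 10 of 17936, where the median widths were 2178 and 1594 bp. H3K27ac at the promoter went from 63 to 216 reads (43.4 to 58.5 times, ratio 2.33, 1.77 to 3.17), a call lost when scaled by total reads (1.33). H3K36me3 over its body was the highest of the family and near equal (1429 and 893 reads, 22.1 and 22.6 times, ratio 1, 0.919 to 1.09). H3K27me3 over the body was called higher (57 and 118 reads, 0.885 and 2.56 times the genome mean, ratio 2.48, 1.81 to 3.49). Itga3 had 74 and 43 H3K4me3 reads (34.1 and 16.7 times, ratio 0.57, 0.378 to 0.833), which was not called, and was called higher for H3K4me1 on 16 and 27 reads (ratio 2.1, 1.12 to 4.28), a call that held under 4 of 9 alternatives and turned to 0.982 in the 2 kb downstream of the TSS. Itga6 was called for no mark (H3K4me3 50 and 58 reads, 23.1 and 22.5 times, ratio 1.12).

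Over the 12 promoter levels of a gene, the protein-coding genes most like Itga7 were Nub1 (Pearson r 0.994), Fam105b (0.993), Slc33a1 (0.992), Tead4 (0.991) and Stk36 (0.991), and the member most like it was Itgav (0.96). The 12 levels share their libraries and mostly separate active marks from H3K27me3 and H3K36me3, so high values are common among active promoters.

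Of the 4 alpha genes whose products bind RGD motifs, as in fibronectin and vitronectin, Itga5 and Itgav had an H3K4me3 peak in both cell types and Itga8 and Itga2b in neither. Itga5 had 120 and 88 H3K4me3 reads (55.3 and 34.1 times, ratio 0.715, 0.535 to 0.946) and 75 and 119 H3K27ac reads (51.6 and 32.2 times, ratio 1.09). Itgav, the partner of the beta 3, 5, 6 and 8 subunits, had 66 and 79 H3K4me3 reads (30.4 and 30.6 times, ratio 1.16) and 41 and 47 H3K27ac reads (28.2 and 12.7 times, ratio 0.786). Neither was called at the promoter for any mark. Itga8 was called lower for H3K4me2 (90 and 24 reads, ratio 0.417, 0.247 to 0.642), with the TSS of another annotated gene, E030013I19Rik, within 1 kb. The platelet subunit Itga2b had at most 15 reads of any mark at its promoter.

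Of the 4 collagen receptor genes, Itga1 had an H3K4me3 peak in myotubes and the others in neither cell type. Itga2 was called lower for H3K4me2 (67 and 13 reads, 20 and 3.5 times, ratio 0.313, 0.149 to 0.539) with 2 and 3 H3K4me3 reads. Itga10, a receptor of cartilage, was called higher for H3K4me2 (14 and 28 reads, ratio 2.94, 1.55 to 6.25), a call that held under 7 of 9 alternatives, and its H3K4me3 reads went from 1 to 14 (0.461 to 5.43 times), too few to call. Its H3K36me3 over the body was called higher (113 and 177 reads, 2.29 and 5.85 times, ratio 2.5, 1.97 to 3.2). Itga11 was called higher for H3K36me3 over the body (151 and 249 reads, 0.522 and 1.4 times, ratio 2.63, 2.15 to 3.25) while its promoter kept H3K27me3. Itga1 was called for no mark.

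Over gene bodies the clearest difference of the family lay in Itga9, whose product binds tenascin, osteopontin and the cell-surface ligand Vcam1. H3K27ac over its 294 kb went from 84 reads in myoblasts to 1374 in myotubes (0.396 to 2.54 times the genome mean, ratio 6.68, 5.42 to 8.53), rank 114 of 11307 gene bodies. The mark was not spread evenly. None of 276 pieces of 1 kb had H3K27ac at 10 or more times the genome mean in myoblasts, and 19 did in myotubes. H3K4me1 went from 500 to 1614 reads (ratio 3.3, 2.99 to 3.67), H3K4me2 from 236 to 729 (2.38, 2.06 to 2.78) and H3K36me3 from 275 to 411 (0.342 to 0.834 times, ratio 2.39, 2.05 to 2.8). H3K27me3 stayed above the genome mean over the body, with 1876 and 1687 reads (2.34 and 2.94 times, ratio 1.08), and the promoter had no H3K4me3 peak. At the first TSS of the gene H3K4me3 had 1 read in myoblasts and 6 in myotubes. The highest piece, at chr9:118633808-118634807 in an intron 118 kb from the first TSS, had 0 H3K27ac reads in myoblasts and 101 in myotubes (0 and 54.7 times). The 300 bp of it with the most myotube reads, at chr9:118634008-118634307 on the plus strand of mm9, which is the strand of the gene, had 0 and 61, and its sequence is shown, with capitals for the same motifs, because the highest piece lies there, a choice made after the values were seen.
Itga9: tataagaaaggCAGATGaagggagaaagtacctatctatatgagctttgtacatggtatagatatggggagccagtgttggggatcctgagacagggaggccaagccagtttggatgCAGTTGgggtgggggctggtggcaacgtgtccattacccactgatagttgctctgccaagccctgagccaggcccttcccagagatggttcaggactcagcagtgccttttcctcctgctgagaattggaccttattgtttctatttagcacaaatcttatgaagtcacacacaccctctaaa
It held 2 matches to CANNTG and none to the other motifs.

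**Figure D4:**
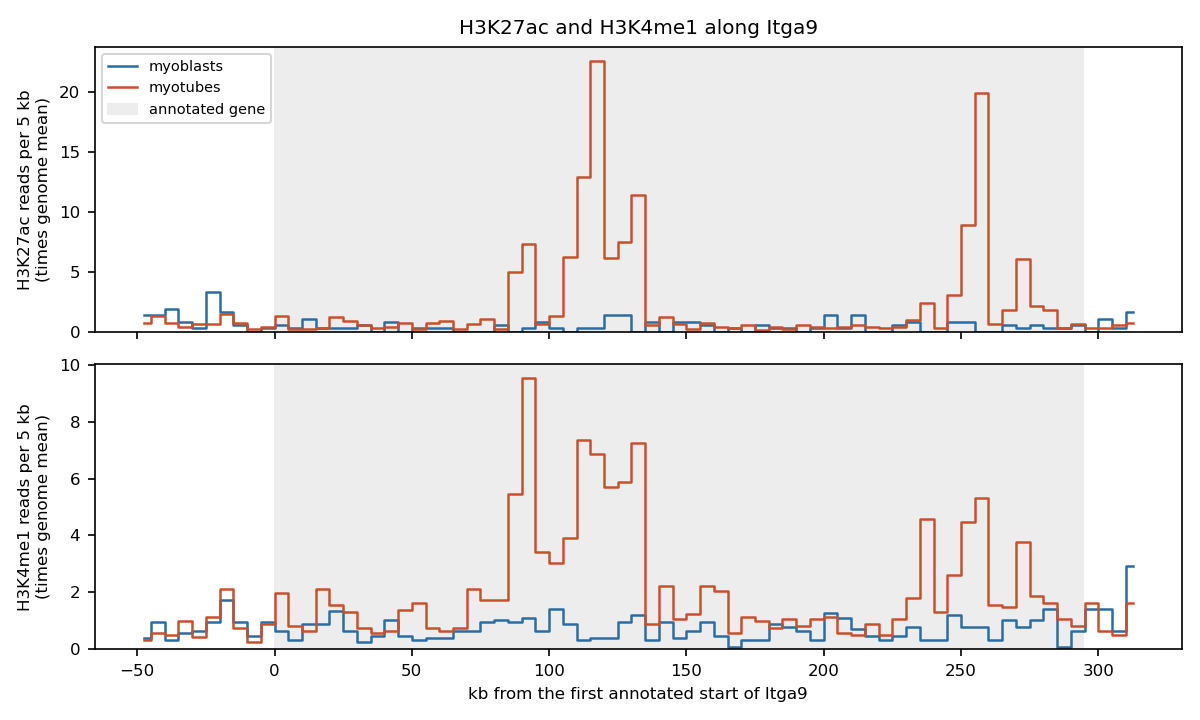
H3K27ac (top) and H3K4me1 (bottom) in bins of 5 kb along Itga9 and its flanks, as times the genome mean against the distance in kb from its first annotated TSS, in myoblasts (blue) and myotubes (red), with the annotated gene shaded. Myotube H3K27ac was highest in the bins centred at 117.5 kb (22.6 times) and 257.5 kb (19.9 times), and no myoblast bin within the gene exceeded 1.38 times for H3K27ac or 1.42 times for H3K4me1.

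Calls over gene bodies were close to the background for most marks. H3K4me2 was called higher at 7 of 38 bodies (background 14.8%) and lower at 7 (16%), H3K4me1 higher at 7 (11.4%) and lower at 5 (10.2%), and H3K27ac higher at 5 (13.9%) and lower at 4 (10.6%). H3K36me3 was called higher at 4 of 37 (7%) and lower at 1 (6.88%), H3K4me3 higher at 1 of 37 (6.16%) and lower at 1 (3.31%), and H3K27me3 higher at 2 of 38 (4.6%) and lower at none (1.63%). Scaled by total reads, higher and lower calls numbered 7 and 5 for H3K4me2, 4 and 5 for H3K27ac and 2 and 0 for H3K27me3, against 2959 and 1578 of all 14043 gene bodies tested for H3K4me2, 1415 and 1381 of 11307 for H3K27ac and 1350 and 102 of 14566 for H3K27me3. Itgb1 was called higher over its body for H3K4me2 (73 and 354 reads, ratio 3.71, 2.91 to 4.9), H3K4me3 (85 and 242, 2.38, 1.87 to 3.11), H3K4me1 (186 and 384, 2.11, 1.77 to 2.54) and H3K27ac (23 and 123, 2.13, 1.41 to 3.61), and its H3K36me3 had a ratio of 0.61 (718 and 273 reads). The H3K4me3 peak at the TSS of Itgb1 ran past the promoter window into the body, to base 131212355 of chromosome 8 in myoblasts and 131213139 in myotubes. The piece of 1 kb centred 2.5 kb from its first TSS had 13 and 66 H3K4me3 reads. The share of such reads in the body ratio was not separated. Counted over the whole gene, the H3K4me3 ratio of Itgb1 was 1.97 and that of H3K27ac 1.55, below the limit. Lamb2 and Itgb4 were called lower for H3K4me2, H3K4me1 and H3K27ac, with ratios of 0.402 to 0.473 and 0.319 to 0.482, of which the H3K27ac call of Itgb4 held under 3 of 8 alternatives. Itgb8 was called higher for H3K4me2 (2.33) and, under 5 of 8 alternatives too, for H3K4me1 (2.03), Itga4 for H3K4me2 (21 and 104 reads, 3.7), and Itgav lower for H3K27ac (0.469, 0.344 to 0.643), which held under 4 of 8 alternatives. Over the whole gene the H3K4me2 ratios of Itgb8 and Itga4 were 1.22 and 1.7. Itga2b, with 392 and 168 H3K4me2 reads, had a ratio of 0.333. Only 3 pieces of 1 kb of its body lay away from any annotated TSS. The piece with the most myoblast H3K27ac had 3 and 2 H3K4me2 reads, and reads around other start sites were not separated. Itgb7 had ratios of 0.387 for H3K4me2 and 0.43 for H3K4me1.

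Among the leukocyte integrin genes, Itgad, Itgam and Itgax, which lie near each other on chromosome 7, were called higher for H3K4me1 (ratios 2.98, 2.12 and 3.11), with body levels of 0.491 to 0.572 times the genome mean in myoblasts and 1.23 to 1.59 in myotubes. Itgad and Itgax were also called higher for H3K4me2 (2.54 and 2.39) and Itgam for H3K27ac (10 and 57 reads, 2.18). Itgad was called higher for H3K36me3 (39 and 63 reads, ratio 2.56, 1.71 to 3.96). It overlaps Cox6a2, a gene of the muscle respiratory chain, and without that gene the H3K36me3 ratio was 2.05 (38 and 49 reads). Itgae was called lower for H3K4me3 (143 and 64 reads, 0.381), and without the overlapping gene Gsg2 the ratio was 0.787 (44 and 41 reads). Itgb2l lies wholly within 1 kb of or inside the gene Igsf5, and its calls for H3K4me2 (0.323) and H3K4me1 (0.389) cannot be told apart from reads of that gene. Itgal was called for no mark. The lowest body ratio of the family for H3K27me3 was that of Itgb2 (122 and 60 reads, 1.29 and 0.891 times, ratio 0.599, 0.428 to 0.815), which was not called.

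**Figure D5:**
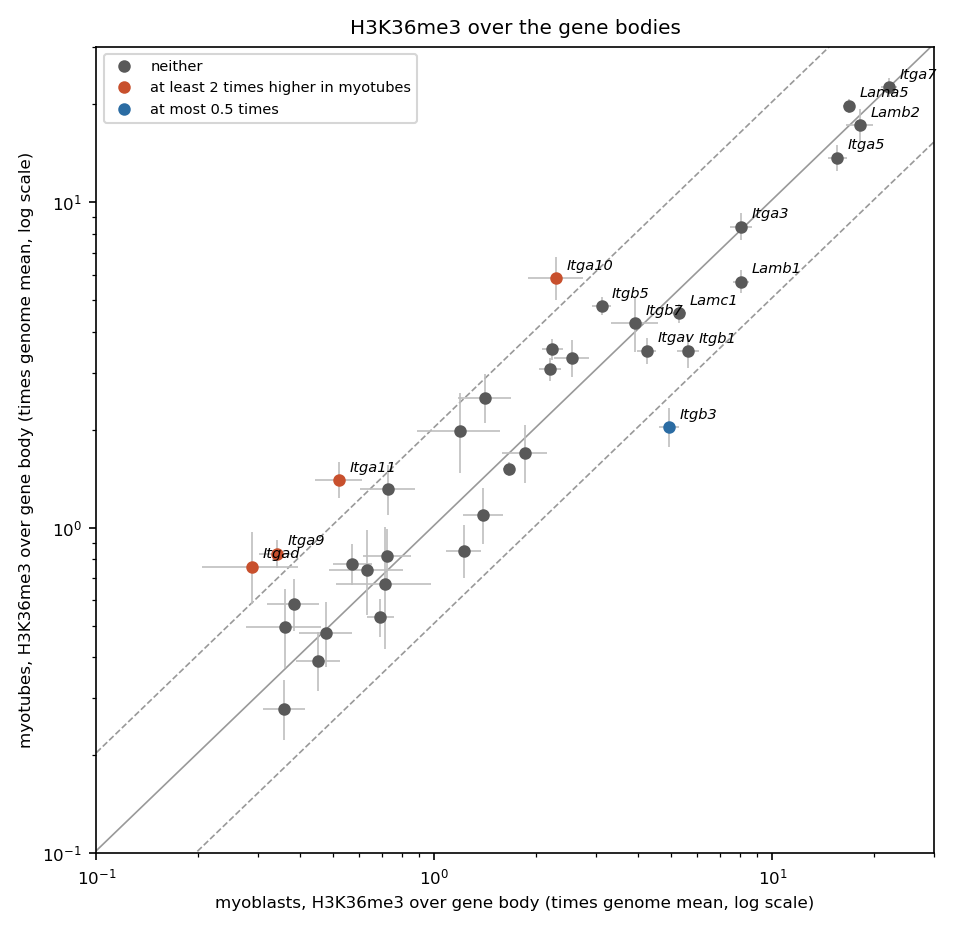
H3K36me3 over the gene bodies of 36 members with at least 30 reads, as times the genome mean in myoblasts (x) and myotubes (y), both axes logarithmic, with 95% Poisson intervals. The solid line is the median ratio of all gene bodies tested and the broken lines are 2 and 0.5 times it. Itgb3 lay below the lower line, Itga9, Itga10, Itga11 and Itgad above the upper one, and Itga7, Lama5, Lamb2 and Itga5 at the high end near the median.

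By promoter H3K4me3, the laminin chains fell into a set with a peak in both cell types and a set with a peak in neither. Lama2, the alpha chain of the muscle basement membrane, was the chain called higher. Its promoter had 32 H3K4me3 reads in myoblasts and 68 in myotubes (14.8 and 26.4 times, ratio 2.03, 1.34 to 3.25) and 11 and 89 H3K27ac reads (7.57 and 24.1 times, ratio 5.16, 2.96 to 11.5). The H3K4me3 call lay at the limit and was lost when scaled by total reads (1.76), with 5 reads added (1.92) and with the deeper library thinned (1.96). Over its body of 636 kb H3K4me2 went from 346 to 1323 reads (2.95, 2.63 to 3.34), H3K4me1 from 963 to 2097 (2.23, 2.07 to 2.41) and H3K27ac from 160 to 1041 (2.67, 2.27 to 3.19). H3K36me3 was not called (2895 and 1624 reads, 1.66 and 1.52 times, ratio 0.898). The piece of 1 kb with the most H3K27ac in myotubes, at chr10:27098094-27099093 in an intron 238 kb from the TSS, had 3 and 105 reads (4.13 and 56.8 times).

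Lama5, Lamb1, Lamb2 and Lamc1, chains of widely expressed laminins, had H3K4me3 peaks in both cell types and ratios below 1 for H3K4me3 that were not called. Lamc1, the gamma chain shared by most laminins, had 133 and 102 reads (61.3 and 39.6 times, 0.747, 0.57 to 0.972) and the highest myoblast H3K27ac of the 38 promoters, with 139 and 138 reads (95.6 and 37.4 times, ratio 0.683). Lamb1 had 105 and 68 H3K4me3 reads (0.632, 0.457 to 0.862), Lama5 94 and 68 (0.706) and Lamb2 60 and 57 (0.924). Over gene bodies H3K36me3 was high at Lama5 (2246 and 1619 reads, 16.9 and 19.8 times) and Lamb2 (482 and 281 reads, 18.1 and 17.2 times). The body of Lama5 was called lower for H3K4me2 (728 and 348 reads, 0.371, 0.325 to 0.421) and higher for H3K27me3 (81 and 146 reads, 0.609 and 1.54 times, ratio 2.16, 1.65 to 2.89), the latter a call that 1 of 8 alternatives ended (1.96).

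Among chains best known from other tissues, Lamc3, Lama3 and Lama1 were called lower for H3K4me1 or H3K4me2 at promoters without an H3K4me3 peak, and Lamb3 was not. Lamc3 had 30 and 3 H3K4me2 reads (8.94 and 0.807 times, ratio 0.196, 0.0297 to 0.489) and 37 and 8 H3K4me1 reads (0.302, 0.111 to 0.602), and in the 2 kb downstream of it the ratios were 0.696 and 0.689. Lama3, an epithelial chain, had 87 and 26 H3K4me2 reads (0.466, 0.281 to 0.711) and 49 and 11 H3K4me1 reads (0.306, 0.134 to 0.558). Lama1 had 31 and 7 H3K4me1 reads (0.319, 0.107 to 0.667). Epithelial markers were low in both cell types, at most 1.84 times the genome mean of H3K4me3 in myoblasts and 4.65 in myotubes. Lama4 and Lamb3 were called at the promoter for no mark, with Lamb3 ratios of 0.678 for H3K4me2 and 0.573 for H3K4me1. The bodies of these chains were not all without H3K27ac. Lamb3 and Lamc3 each had 4 pieces of 1 kb at 10 or more times the genome mean in myotubes and 0 in myoblasts. Lama1, Lama3 and Lama4 had 0 such pieces in myotubes, and Lama3 had 1 in myoblasts.

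Genes that act with the family were counted the same way, and their calls stand against the same shares of all features, for promoter H3K4me3 3.92% higher and 4.13% lower, for promoter H3K27ac 14.3% and 12.5% and for H3K36me3 over gene bodies 7% and 6.88%. Of 20 integrin adaptors 15 could be tested for promoter H3K4me3, with 1 called higher and none lower (median ratio 0.966), and 16 for H3K27ac, with 3 higher and 2 lower (median 1.39). Itgb1bp2, which encodes the muscle adaptor melusin, went from 3 to 58 H3K4me3 reads (ratio 14.3, 6.12 to 93.7) and from 0 to 67 H3K27ac reads, at least 15.4-fold higher with 0 taken as 3 reads. Itgb1bp3, a muscle protein also known as a nicotinamide riboside kinase, went from 2 to 166 H3K27ac reads (38.3, 15.6 to 475) and from 12 to 30 H3K36me3 reads over its body (3.82, 1.99 to 8.58). Rsu1, of the complex around integrin-linked kinase, was called higher for H3K27ac (27 and 97 reads, 2.41), and the parvin gene Parvb (114 and 61 reads, 0.371) and the kinase gene Src (92 and 37 reads, 0.281) lower.

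Of 14 genes of the basement membrane and laminin partners, 10 could be tested for promoter H3K4me3, with 1 called higher and 2 lower (median ratio 1.01). The 2 lower were Col4a1 (106 and 16 reads, 0.154, 0.0809 to 0.249) and Col4a2 (107 and 15 reads, 0.144), the main chains of collagen IV, which share 1 promoter and hence its reads. H3K27ac there went from 107 to 59 reads (0.382). Col4a5 was called higher for H3K4me3 (11 and 25 reads, 2.1, 1.05 to 4.97), and Dag1, the gene of the laminin receptor dystroglycan, for H3K27ac (49 and 148 reads, 2.05). Over gene bodies H3K36me3 was called higher at Agrn, encoding agrin (180 and 257 reads, 2.28), and at Bcam, a receptor of the Lama5 chain (37 and 109 reads, 4.63, 3.22 to 7.04), and lower at Nid1, encoding nidogen (1370 and 317 reads, 0.371).

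Of 10 genes of other integrin ligands, 5 could be tested for H3K4me3 (none called higher, 1 lower), 3 for H3K27ac (1 higher, none lower) and 7 for H3K36me3 over the body (none higher, 3 lower). Spp1, encoding osteopontin, was called lower for H3K4me3 (50 and 12 reads, 0.248, 0.113 to 0.444) and for H3K36me3 over its body (80 and 14 reads, 0.296), and Thbs1, encoding thrombospondin, was called higher for H3K27ac (54 and 303 reads, 3.8, 2.88 to 5.25). H3K36me3 was called lower at Vcam1 (267 and 28 reads, 0.173, 0.109 to 0.248) and Tnc, encoding tenascin C (772 and 169 reads, 0.352, 0.295 to 0.414). Spp1, Vcam1 and Tnc encode ligands of the Itga9 product. The body of Itga9 was called higher for H3K27ac and H3K36me3 in myotubes, with H3K36me3 still below and H3K27me3 above the genome mean. Its promoter had no H3K4me3 peak, and a relation between these calls was not tested.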

How the data were processed

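ChIP-seq data of 12 libraries, 1 for each of 6 histone marks in C2C12 myoblasts and myotubes, were used. The authors aligned the reads to mm9 and, as stated for the myoblast libraries, used Mosaik and kept unique alignments, while the aligner of the myotube libraries is not given in the sources used here. The deposited read files hold 1 line per read of 34 bp, each a count of 1, and what was merged into them and whether duplicates were removed is not given in the sources used here. The authors called peaks with MACS, and each deposited peak has a score that ranks it in its list. Settings of MACS and the role of any input are not given in the sources used here.

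Reads on chromosomes 1 to 19 and X were lengthened to 150 bp, and the midpoint of each was counted. Genes came from GENCODE M1, of the same build. The promoter is 1 kb either side of the annotated TSS of a coding transcript with the most H3K4me3 reads in both libraries, and the gene body is the annotated gene without that window. Levels are reads over the number that the library would give at 2555806925 bases other than N, evenly spread. Ratios have 1 read added to each count and are divided by the median over all features whose 2 libraries summed to 30 reads or more. Intervals are at 95%, exact Poisson for a level, exact conditional binomial (Clopper-Pearson) for a ratio, without the added read, and order-statistic for a median. PCR reads without molecular identifiers are not independent molecules, so all intervals and limits cover counting error only. A count of 0 was taken as at most 3 reads. An H3K4me3 peak was assigned if it overlapped the promoter by at least 1 bp, and an H3K27me3 promoter needed 3 times the genome mean and a lower Poisson bound above 1. With 1 library per group no p-value was computed.

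Only the H3K4me3 peak lists were used, and for H3K27me3 and H3K27ac reads alone. In myoblasts, the list attached to the H3K27me3 sample held 36.4 times the genome mean of H3K27ac reads and 0.804 times that of H3K27me3 reads, and the list attached to the H3K27ac sample held 6.76 times that of H3K27me3 and 0.588 times that of H3K27ac, so these 2 lists appear exchanged. The myotube lists held 8.77 times the genome mean of H3K27me3 reads and 27.5 times that of H3K27ac reads, each in the list of that mark. The read files were used as labelled. Results of 1 member are in the counts and are not reported singly here.

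Members in full are those called at promoters for any mark or over gene bodies for H3K36me3 or H3K27me3, those with the largest rise or fall among tested, those with H3K27me3 at 3 or more times, and those with an H3K4me3 peak in 1 cell type. Adaptors, basement membrane genes and ligands are named when called for H3K4me3 or H3K27ac at promoters or for H3K36me3 over bodies. Other body calls were named after the values were seen. Members and lists were chosen with earlier results of these data known. Of the leukocyte markers, Spi1 was not found under that symbol. Motifs were searched on both strands of the mm9 sequence. Alternatives changed the scaling, the minimum of reads, the added reads, the extension, duplicates, depth, the TSS and the window, the peak overlap and score, and the H3K27me3 limit. The ratio, its interval and the calls were tested on simulated Poisson counts, a test that does not cover the counting of reads. All steps ran in Python 3.11.15, with SciPy 1.17.1 for intervals, Matplotlib 3.10.9 for figures and NumPy 2.4.6 and pandas 2.3.3 for tables.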

Additional observations from a re-analysis of the deposited data

How the results depend on the processing

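The counts of members called, the medians and the counts of marked promoters were recomputed under each alternative, and 190 of 212 such values stayed within 1.5 times the count or within the interval of the median. With no minimum of reads, the members called went to 13 for promoter H3K4me3, 13 for H3K4me1, 18 for H3K27ac, 13 for H3K27me3 and 11 for H3K36me3, and to 4 for H3K4me3 and 1 for H3K27me3 over gene bodies, with median ratios of 1.14 for H3K4me3 gene bodies and 0.622 for H3K4me2 promoters. With a minimum of 10 reads they went to 5 for promoter H3K4me3, 7 for H3K27me3 and 3 for H3K36me3. Features below 30 reads enter these counts, which is how the alternatives are made. Scaled by total reads, 21 members were called for promoter H3K4me2 and 1 for H3K27me3, and the medians were 0.412 for H3K4me2 and 0.621 for H3K27ac promoters and 1.11 for H3K27me3 gene bodies. For promoter H3K27me3, 1 member was called with unextended reads and 1 in the 2 kb downstream of the TSS, and over the whole annotated gene 1 member was called for H3K4me3. In a window of 2.5 kb either side, 4 members passed the H3K27me3 limit in myoblasts and 2 in myotubes; the cause was not tested.

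Of the 70 ratios called for members, 62 stayed called when scaled by total reads, 60 with 5 reads added, 64 with the deeper library thinned, 68 with unextended reads and 68 with 1 read per position. Scaling by total reads lowers every promoter ratio of the marks with promoter calls, so it could end no lower call there. It raises the body ratios of H3K4me2 and H3K27me3, so it could end no higher call of these. In the 2 kb downstream of the TSS 19 of 24 promoter calls held, and Itga3 H3K4me1 turned to 0.982. Leaving out overlapping coding genes, an alternative added after seeing the data, kept 6 of 7 calls. No paired analysis was possible because each group has 1 library, and for the same reason no replicate could be left out. H3K27ac in myoblasts had the fewest reads, 1858771, and 17 of 38 promoters reached 30 reads for it in both libraries together, where depth and absence of the mark cannot be told apart.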
